A study of Sus scrofa with 16 samples.

Results

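The miR-183 cluster is a group of 3 microRNAs, miR-183, miR-96 and miR-182, whose genes sit side by side. It was followed here in the small RNA of pig endometrium, the lining of the uterus. Each member was the set of 20 to 26 nt reads that open with its 20-base start, and the 3 starts were among 23707 distinct starts with at least 30 reads in all libraries. No table of mature microRNA sequences was used: each start was taken as the most abundant one that opens with T and the known seed of the microRNA, so the names rest on the seed and on that abundance. The choice used abundance over all sows together and no difference between groups.

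The endometrium came from pregnant sows on day 10 after daily oral oestradiol-17β from insemination. The control group held 4 sows given the ethanol carrier alone (0 µg/kg/day). Treatment was 0.05 µg per kg body weight per day for 3 sows, 10 µg for 4 sows and 1000 µg for 4 sows. Sow 7 of the 0.05 group was extracted and sequenced 2 times, and these libraries were summed, so that 16 libraries gave 15 sows. The comparisons ask whether the dose moved these microRNAs; the whole uterine lining was sequenced, with its epithelium, glands, stroma, vessels and blood.

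A microRNA guides silencing proteins to messenger RNAs that pair with its seed, bases 2 to 8. The members of the miR-183 cluster are cut from a shared primary transcript, are strongly expressed in sensory cells such as hair cells and photoreceptors, and are found in many epithelia. Inherited changes in the seed of miR-96 cause progressive hearing loss in humans and mice. In the RefSeq gene table of Sscrofa11.1, used for names and order only, UBE2H is followed by MIR183, MIR96 and MIR182 and then by NRF1, with no other gene between them.

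The leading full-length read of each member is printed to show how far the products of this cluster resemble each other, with the seed in capitals and every base as in the DNA reads.
miR-183: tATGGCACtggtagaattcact
miR-96: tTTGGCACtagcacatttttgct
miR-182: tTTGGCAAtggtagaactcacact
Positions are counted from 1 at the 5′ end of the read. Over the first 20 bases, miR-183 and miR-182 differed at 3 positions (A2T, C8A and T17C from miR-183 to miR-182). miR-183 and miR-96 differed at 7 positions, of which 1 lay in the seed (A2T). miR-96 and miR-182 differed at 8 positions, again with 1 in the seed (C8A). The 3 members therefore carry 3 different seeds, while the bases after the seed are closest between miR-183 and miR-182.

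The starts were well separated from other reads. The miR-183 start held 96.4% of all reads with its first 8 bases, the miR-96 start 96.7% and the miR-182 start 97.5%. Reads with 1 base changed added 4.31, 4.39 and 4.496% of the member's reads for miR-183, miR-96 and miR-182. The substitutions G4T and A7G were among the 5 most frequent in all 3.

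The libraries held 4497096 to 14945018 reads, of which 46.7 to 78.4% were 18 to 26 nt long, the denominator of every level. By the lengths of all their reads, the sows fell into 3 classes, a split made after the data were seen. In class A (sows 1, 2, 5, 8, 9 and 12) under 8% of the reads were 17 to 19 nt long. Sows 3, 4, 7, 10, 11 and 15, called class B, exceeded that and had under 5% of their reads at 40 nt and longer. Sows 6, 13 and 14, called class C, exceeded both limits. Sow 7 lay near the border with 4.75%, and its libraries counted singly were 1 of class B and 1 of class C. Reads with the seeds of the epithelial miR-200 family had a mean of 28200 RPM (reads scaled to 1000000 reads of 18 to 26 nt), those of the stromal and smooth muscle list 88869, those of the red cell list 1832 and those of the leukocyte list 368. Reads with the seeds of the neural and sensory list had a mean of 4642 RPM. Within that list the means ran from 3.65 RPM for the seed of miR-137 and 4.05 RPM for that of miR-124, a neuronal microRNA, to 1741 RPM for that of miR-9 and 1922 RPM for that of miR-129. The seed of miR-211, with 961 RPM, is also that of miR-204. Reads counted by seed alone may include other RNA, which was not tested. Every listed seed was above 0 in every sow.

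miR-182 was the most abundant member in every sow. It had 1607, 1097, 967 and 1596 RPM in control sows 1 to 4, and 1459, 1162 and 968 RPM in sows 5 to 7 at 0.05 µg/kg/day. At 10 µg/kg/day sows 8 to 11 had 1320.1, 1318, 945 and 1012 RPM, and at 1000 µg/kg/day sows 12 to 15 had 1362, 1473, 1387 and 1395 RPM. The 4 sows of the highest dose lay close together, inside the range of the control sows. Each treated group overlapped the control group. The sows at 10 µg/kg/day, with at most 1320.1 RPM, all lay below those at 1000 µg/kg/day, with at least 1362 RPM. This separation was noticed after the values were seen, and how many of all starts separate in this way was not counted. For miR-183 and miR-96 the same 2 doses overlapped. On levels scaled by edgeR's TMM factors they overlapped for miR-182 too, with 1640 in sow 9 at 10 µg/kg/day and 1270 in sow 15 at 1000 µg/kg/day. The difference between these 2 doses was not tested. The group means were 1317 ± 333 in control, 1197 ± 247 at 0.05, 1149 ± 199 at 10 and 1404 ± 47.8 RPM at 1000 µg/kg/day (SD, n = 4, 3, 4 and 4). By its mean over sows miR-182 was number 86 among all starts.

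miR-183 came next in every sow. Control sows 1 to 4 had 646, 375, 407 and 707 RPM, and sows 5 to 7 at 0.05 µg/kg/day had 579, 504 and 426 RPM. Sows 8 to 11 at 10 µg/kg/day had 487, 518, 405 and 473 RPM, and sows 12 to 15 at 1000 µg/kg/day had 510.3, 731, 565 and 600.2 RPM. Sow 13 at the highest dose and sow 4 of the control group were the highest, sow 2 of the control group was the lowest, and the groups overlapped. Means were 534 ± 168 in control, 503 ± 76.9 at 0.05, 471 ± 47.6 at 10 and 602 ± 93.8 RPM at 1000 µg/kg/day (SD, n = 4, 3, 4 and 4), and miR-183 was number 138 among the starts.

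miR-96, the member whose seed is tied to hearing, was the least abundant in every sow. It had 249, 148, 131 and 184 RPM in control sows 1 to 4, and 193, 228 and 101 RPM in sows 5 to 7 at 0.05 µg/kg/day. It had 199.8, 184, 128 and 115 RPM in sows 8 to 11 at 10 µg/kg/day and 204, 205, 127 and 111 RPM in sows 12 to 15 at 1000 µg/kg/day. Every group held low and high sows, and the groups overlapped. Means were 178 ± 52.2 in control, 174 ± 65.3 at 0.05, 157 ± 41.3 at 10 and 162 ± 50.03 RPM at 1000 µg/kg/day (SD, n = 4, 3, 4 and 4), and miR-96 was number 339 among the starts. In whole tissue, fewer cells of a type and less RNA per cell cannot be told apart, here and in every result that follows.

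**Figure D1:**
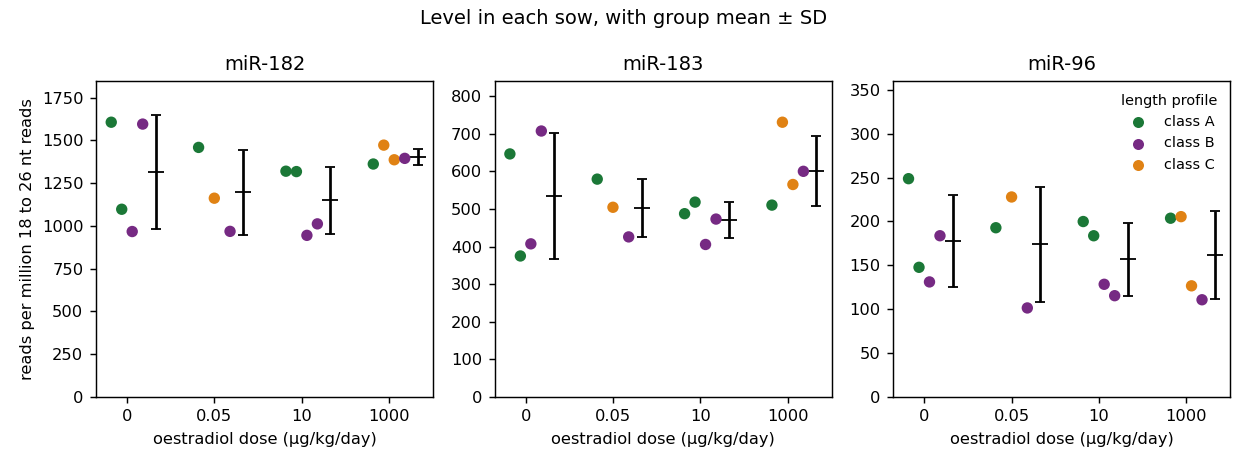
Level of each member in every sow (y axis, RPM, from 0) by oestradiol dose (x axis, µg/kg/day); 1 point per sow, coloured by length-profile class, with the group mean and SD as a bar beside the points. In all 3 panels each treated group overlaps the control group. The miR-182 points at 1000 µg/kg/day lie between 1362 and 1473 RPM, and class B points are the lowest miR-96 values at each treated dose.

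The neighbouring genes of this cluster thus gave unequal numbers of reads. Within sows, miR-182 had 2.41 times the reads of miR-183 as a geometric mean, with a range from 2.02 in sow 13 to 2.93 in sow 2. It had 7.78 times the reads of miR-96, from 5.10 in sow 6 to 12.6 in sow 15. miR-183 had 3.23 times the reads of miR-96, from 2.21 in sow 6 to 5.43 in sow 15. Each ratio was above 1 in 15 of 15 sows, and the exact two-sided sign-flip permutation test over sows gave p = 6.1e-05 for each, the smallest that its 32768 sign patterns can give (adjusted p = 6.1e-05 over the 3 pairs).

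The ratio of miR-182 to miR-183 varied least from sow to sow, with an SD of 0.14 on the log2 scale against 0.32 for miR-182 over miR-96 and 0.38 for miR-183 over miR-96. Of the reads of the 3 members together, miR-182 made up 64.7%, miR-183 26.9% and miR-96 8.48% on average. The share of miR-96 ran from 5.25% in sow 15 to 12.03% in sow 6, and that of miR-182 from 61.1% in sow 13 to 67.7% in sow 2. A read spans a whole microRNA, so these levels need no scaling for length, but they also carry the yield of each sequence in ligation and amplification, which was not tested.

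**Figure D2:**
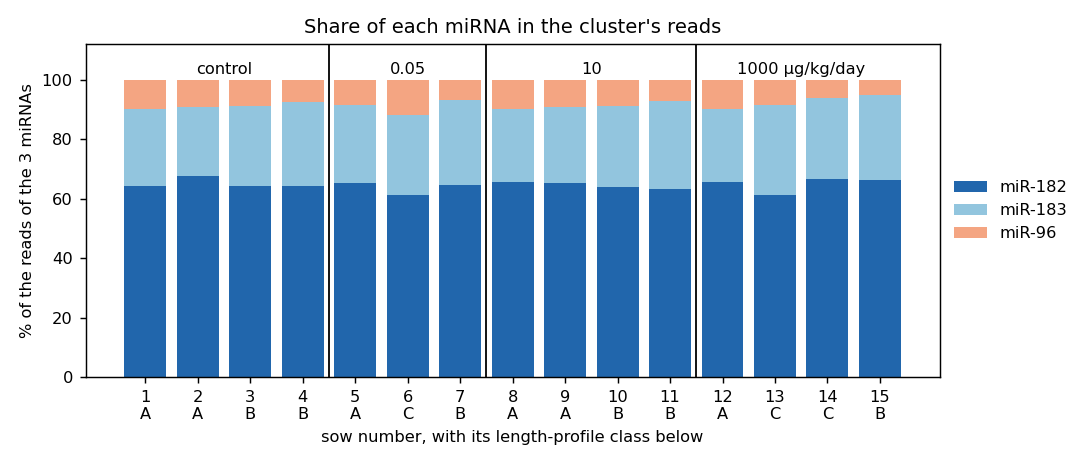
Share of miR-182, miR-183 and miR-96 in the reads of the 3 together (y axis, percent), 1 bar per sow (x axis, sow number with its length-profile class), grouped by dose. miR-182 takes 61.1 to 67.7% of each bar and miR-96 5.25 to 12.03%.

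The size of the ratios depends on which starts are counted. With starts up to 2 bases away added to each member, the mean log2 ratio of miR-182 over miR-183 was 0.75 in place of 1.27, and that of miR-183 over miR-96 was 2.20 in place of 1.69. That of miR-182 over miR-96 was 2.95 in place of 2.96, and the order of the members was kept.

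The order of the 3 was the same at every dose, and the ratios were compared with control by exact two-sided permutation tests of mean log2 ratios. The largest difference was that of miR-183 over miR-96 at 1000 µg/kg/day, with a mean log2 ratio of 1.94 ± 0.48 against 1.58 ± 0.28 in control (SD, n = 4 and 4; difference 0.36, permutation p = 0.286). For miR-182 over miR-96 the difference at that dose was 0.28 (exact permutation p = 0.343), and for miR-182 over miR-183 it was -0.09 (exact permutation p = 0.486). The other 6 differences lay between -0.08 and 0.04. All 9 had an adjusted p of 0.971, where the smallest p that the groups allow is 0.0286.

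No member passed the test for a dose effect. The edgeR quasi-likelihood test was run on 9951 starts and called 0 at each dose against control, for the 3 doses together and for dose rank, at an adjusted p under 0.05 (percent called 0). Before adjustment, p lay under 0.05 for 256 starts at the lowest dose (2.57%), 317 at the middle dose (3.19%), 445 at the highest dose (4.47%), 305 for the doses together (3.07%) and 407 for rank (4.09%), and no member was among them. DESeq2 called 0, 1, 0, 2 and 0 starts in the same order, with no member among those of a single dose, and before adjustment gave 245, 281, 414, 320 and 396.

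At 1000 µg/kg/day the log2 difference from control was 0.16 for miR-182 (95% CI -0.31 to 0.63), 0.25 for miR-183 (-0.23 to 0.73) and -0.07 for miR-96 (-0.72 to 0.59). At 10 µg/kg/day it was -0.06 for miR-182 (-0.53 to 0.41), -0.04 for miR-183 (-0.52 to 0.44) and -0.04 for miR-96 (-0.69 to 0.61). At 0.05 µg/kg/day the values were -0.14 for miR-182 (-0.65 to 0.37), -0.08 for miR-183 (-0.59 to 0.44) and -0.02 for miR-96 (-0.73 to 0.68). The intervals cover 0 in every case. They leave room for a rise or a fall, widest for miR-96, so they do not show that the levels were alike. The comparisons share the 4 control sows.

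With the length-profile class as a term in the fit, the log2 differences at 1000 µg/kg/day were 0.06 for miR-182, 0.07 for miR-183 and -0.38 for miR-96. At 0.05 µg/kg/day they were -0.22, -0.20 and -0.28 in the same order, and at 10 µg/kg/day -0.09, -0.06 and -0.09, with 0 starts called by edgeR at any dose. Class C held no control sow.

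The direction rests on single sows for several of the values without that term. miR-96 at 0.05 µg/kg/day was -0.37 without sow 6 and 0.25 without sow 7, and at 1000 µg/kg/day it was -0.28 without sow 13 and 0.16 without control sow 1. For miR-182 and miR-183 at 1000 µg/kg/day the difference stayed above 0 when any 1 sow was left out, with 0.02 to 0.29 for miR-182 and 0.07 to 0.38 for miR-183. Per step of dose rank the log2 slope was 0.05 for miR-182, 0.08 for miR-183 and -0.02 for miR-96.

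**Figure D3:**
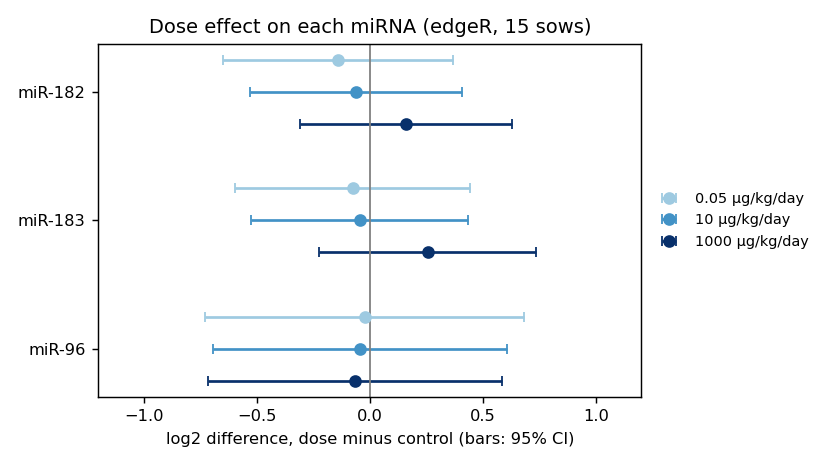
Log2 difference of each dose minus control (x axis) for miR-182, miR-183 and miR-96 (y axis); points are edgeR estimates over 15 sows and bars are 95% confidence intervals. All 9 intervals cross 0, and those of miR-96 are the widest.

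Other epithelial and tissue microRNAs give the setting at the highest dose, where 5126 of all 9951 tested starts had a positive log2 difference and the median was 0.01. Of the 81 tested starts with a seed of the miR-200 family, which marks epithelium, 71 had a positive value at 1000 µg/kg/day and the median was 0.32, with 0 called. Of 22 starts with a red cell seed, 22 had a positive value and the median was 0.64, with 0 called. The sum of the red cell list had 1261 to 1561 RPM in control sows and 971 to 3776 RPM at 1000 µg/kg/day. Of 37 starts with a neural or sensory seed 21 had a positive value (median 0.07), of 41 with a squamous or ciliated epithelium seed 18 (median -0.03), and of 144 with a stromal or smooth muscle seed 92 (median 0.11). Of 17 with an endothelial seed 13 had a positive value (median 0.22), of 24 with a neuroendocrine seed 14 (median 0.19), and of 5 with a leukocyte seed 2 (median -0.07), again with 0 called. At 0.05 and 10 µg/kg/day 38 and 51 of the 81 miR-200 family starts had a positive value, and 16 and 19 of the 22 red cell starts. Of all 9951 starts 4891 and 5420 did so at these doses. Starts of a list share its few seeds, can be variants of the same reads and come from the same sows. Their counts are therefore not counts of independent microRNAs. The part of these lists in the members' values was not tested.

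The level of miR-96 also differed between length-profile classes, though that call did not hold in every setting. With dose in the fit, miR-96 was lower in class B than in class A (edgeR log2 difference -0.74, with a 95% CI from -1.11 to -0.37 and an adjusted p of 0.0161), and 6.56% of the 9951 starts were called in that comparison, 265 higher and 388 lower. Class A sows had 148 to 249 RPM of miR-96 and class B sows 101 to 184 RPM, so the ranges overlapped; the means were 196 ± 32.7 and 128 ± 29.3 RPM (SD, n = 6 and 6). The adjusted p was 0.0507 without sow 11 and 0.0582 without sow 12 (edgeR), and with any 1 sow left out the number of starts called ran from 263 (without sow 11) to 707. The log2 difference was -0.38 for miR-182 (95% CI -0.69 to -0.06, adjusted p = 0.129) and -0.18 for miR-183 (-0.53 to 0.17, adjusted p = 0.529) by edgeR. These are different sizes for products of the same transcript, and the differences between them were not tested.

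Scaled to all deposited reads, miR-96 differed by -0.20 between the classes (adjusted p = 0.387, edgeR), with 3772 starts called higher and 138 lower, while the median of all starts moved from -0.02 to 0.52, so that miR-96 stood at -0.71 and -0.72 relative to that median under the 2 scalings. In class C minus class A the values were 0.20 for miR-96, 0.02 for miR-182 and 0.24 for miR-183, and 0 starts were called (percent called 0). The repeat extraction of sow 7 gave 81.1 and 114 RPM of miR-96, 391 and 448 RPM of miR-183 and 935 and 990 RPM of miR-182, a log2 spread of 0.50, 0.20 and 0.08 within 1 animal. Of 27 listed seed families, 22 had a lower mean in class B than in class A and 5 a higher one. Among them, chosen after their values were seen, miR-200a/miR-141 had 13816 ± 1950 RPM in class A and 10394 ± 1072 in class B (SD, n = 6 and 6), and miR-145, a smooth muscle microRNA, 3774 ± 524 and 2488 ± 481 RPM. miR-200b/miR-200c/miR-429 had 16225 ± 2088 and 15159 ± 1526 RPM. Those with a higher mean included miR-375, at 909 ± 211 and 1509 ± 699 RPM, and miR-129, at 1501 ± 228 and 2399 ± 160 RPM. The part of these families in the difference of miR-96 was not tested. Class A and class B each held 2 control sows, 1 sow of the lowest dose, 2 of the middle dose and 1 of the highest, and class C held 1 sow of the lowest dose and 2 of the highest.

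The share of miR-183 in the cluster separated classes A and B without overlap, with 23.1 to 25.97% in class A and 27.05 to 29.6% in class B (6.56% of starts were called between these classes). The share of miR-96 was 8.64 to 9.95% in class A and 5.25 to 8.70% in class B, which overlap. The share of miR-182 was 64.2 to 67.7% and 63.2 to 66.2%, which overlap as well. The mean shares in class A and class B were 24.9 ± 1.11 and 28.2 ± 0.894% for miR-183, 9.42 ± 0.552 and 7.33 ± 1.29% for miR-96, and 65.7 ± 1.16 and 64.4 ± 1.02% for miR-182 (SD, n = 6 and 6). The ratio of miR-182 to miR-183 did not overlap between these classes either, with 2.49 to 2.93 in class A and 2.14 to 2.38 in class B. These separations were noticed after the values were seen and were not tested. Both rest largely on the same reads of miR-182 and miR-183, so they are not independent of each other. The 6.56% is the share of starts called by edgeR. How many starts, shares or ratios separate these classes without overlap was not counted.

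Across the 15 sows, miR-182 and miR-183 moved together (log2 RPM, Pearson r = 0.885, adjusted p = 6e-05; Spearman rho = 0.929, adjusted p = 3e-05, permutation tests with 100000 resamples). Leaving out the 2 sows farthest from the median gave r = 0.847, and the relation was r = 0.990 within class A and r = 0.987 within class B. miR-182 and miR-96 were less closely related (r = 0.629, adjusted p = 0.0209; rho = 0.518, adjusted p = 0.075, permutation tests). Without the 2 farthest sows r was 0.584 (adjusted p = 0.0547, permutation), and it was 0.938 within class A but 0.582 within class B (adjusted p = 0.0389 and 0.269, exact permutation). For miR-183 and miR-96 r was 0.479 (adjusted p = 0.072) and rho 0.414 (adjusted p = 0.126, permutation tests), with 0.417 without the 2 farthest sows, 0.901 in class A and 0.563 in class B. By Pearson r, miR-182 with miR-183 was thus the only 1 of 3 pairs that passed the test in both classes. Its Spearman rho in class A was 0.829 (adjusted p = 0.0875, exact permutation), the same as for miR-182 with miR-96. On levels scaled by edgeR's TMM factors all 3 pairs passed. There r was 0.894 for miR-182 with miR-183, 0.738 for miR-182 with miR-96 and 0.603 for miR-183 with miR-96. Whether the correlations differ was not tested. The values of a sow share its denominator, and class C held too few sows for a value.

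**Figure D4:**
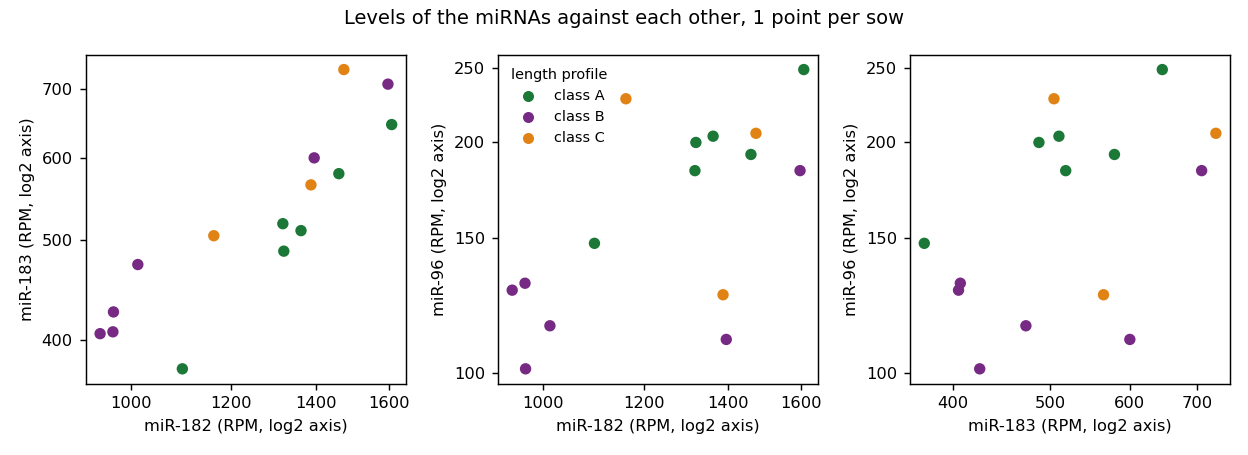
Levels of the members against each other, 1 point per sow, coloured by length-profile class; both axes are RPM on a log2 scale. miR-182 and miR-183 lie along a line (r = 0.885). Several class B sows have low miR-96 at low miR-182, and class B sow 15 has 111 RPM of miR-96 at 1395 RPM of miR-182. Class B sow 4, with 1596 RPM of miR-182, has 184 RPM of miR-96.

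Among the 18 listed seed families that averaged 100 RPM or more, the closest to each member over the 15 sows were found by Pearson r of log2 RPM, as a description. For miR-183 these were miR-375, a microRNA of endocrine and secretory cells (r = 0.75), miR-34/miR-449 of ciliated epithelium (0.50) and miR-200b/miR-200c/miR-429 (0.46). For miR-182 they were miR-200a/miR-141 (0.59), miR-200b/miR-200c/miR-429 (0.57) and miR-203 of squamous epithelium (0.45). For miR-96 they were miR-200a/miR-141 (0.81), miR-126 of endothelium (0.69) and miR-7 (0.66). Names here are those of seeds, and the families and members share each sow's denominator and class.

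The 5′ end of a microRNA sets its seed, and here the members differed. miR-183 had a second start 1 base downstream, with 21304 reads against 47256 at the main start. Its leading read is shown because the shift changes the seed, given in capitals.
miR-183 shifted: aTGGCACTggtagaattcact
The shifted seed, TGGCACT, is not that of any of the 3 members. In every sow 26.8 to 32.9% of the reads at both starts were of the shifted form. Reads shifted by 1 base downstream were 1.70% as many as the main reads of miR-96 and 1.37% as many for miR-182, against 45.1% for miR-183. Reads that start 1 base upstream were 0.23% as many for miR-183, 0.07% for miR-96 and 0.05% for miR-182.

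The shifted form of miR-183 had no called dose difference. In control sows it had 277, 154, 181 and 335 RPM, in sows 5 to 7 it had 265, 232 and 205 RPM, in sows 8 to 11 it had 223, 222, 199.05 and 214 RPM, and in sows 12 to 15 it had 187, 296, 268 and 262 RPM. Sow 4 was the highest and sow 2 the lowest, both in the control group, and the groups overlapped. At 1000 µg/kg/day the log2 difference from control was 0.18 (95% CI -0.31 to 0.68), and at 10 and 0.05 µg/kg/day it was -0.0056 and -0.0036, with 0 called by edgeR at any dose. The rule for miR-183 does not count these reads, so its level is that of the main start alone.

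The 3′ end gave each member its own length. For miR-183, 73.2% of reads were 22 nt and 17.4% were 23 nt. For miR-96, 84.7% were 23 nt, and for miR-182, 62.8% were 24 nt, 12.8% were 22 nt and 11.2% were 23 nt. The most frequent full read held 62.5% of miR-183, 65.1% of miR-96 and 51.9% of miR-182 reads. A form of miR-96 that ends in gcc in place of gct held 13.8% of its reads, and a form of miR-183 that ends in cc in place of ct held 8.86%. The like form of miR-182, with cacc in place of cact, held 8.12%. Whether these last bases were added after cutting was not tested. The share of the leading length varied little, from 69.6 to 76.5% for miR-183, 82.1 to 91.1% for miR-96 and 59.3 to 68.2% for miR-182 over sows.

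**Figure D5:**
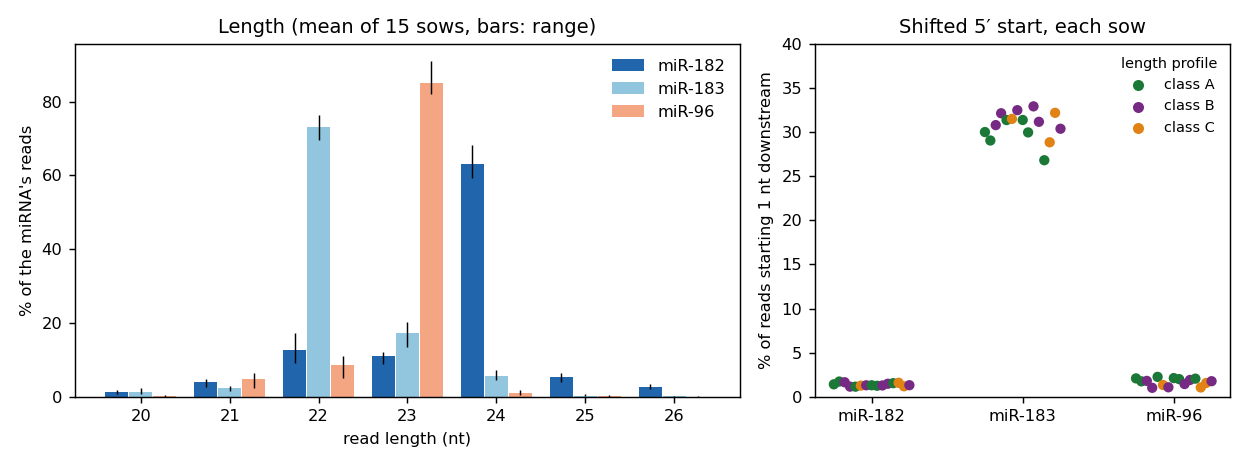
Left, percent of each member's reads (y axis) at each read length (x axis, nt), as the mean of 15 sows with the range as a bar; right, percent of reads that start 1 base downstream, among those at both starts, 1 point per sow coloured by length-profile class. The members peak at 22, 23 and 24 nt, and the shifted start is at 26.8 to 32.9% for miR-183 and far lower for the others.

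The opposite arm of each hairpin, the 3p strand that is mostly discarded, was rare. For miR-182, a read group opened with the known first bases of its 3p arm. It paired with the 5p read at 14 of 19 bases and had 88 reads, and is shown as the only group taken as an opposite arm.
miR-182 opposite arm: tggttctagacttgccaact
There were thus 1276 reads of miR-182 for each read of this arm. Reads with the first 8 bases of the 3p arms of miR-183 and miR-96 numbered 90 and 88, and their leading groups, with 31 and 6 reads, were not taken as those arms.

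miR-96 also shares its seed with another abundant read group, so that most reads with that seed were not miR-96. Its start held 27.5% of all reads with the seed TTGGCAC. The leading other read, printed to show that it shares the seed of miR-96 and little beyond it, was not matched to a name.
miR-96-seed read: cTTGGCACctagtaagcactca
It differed from miR-96 at 11 of the first 20 bases and had 33841 reads against 13979 of miR-96, 2.42 times as many. Within sows the ratio ran from 1.37 in sow 1 to 4.02 in sow 15. It had 342, 303, 284 and 297 RPM in control sows 1 to 4, 327, 385 and 385 RPM in sows 5 to 7, 281, 353, 413 and 359 RPM in sows 8 to 11, and 369, 362, 467 and 445 RPM in sows 12 to 15. The 4 sows at 1000 µg/kg/day were all above the 4 control sows, a separation noticed after the values were seen. How many of all starts separate in this way was not counted. The log2 difference of this read at that dose was 0.47 (95% CI 0.02 to 0.92), which was not called over all starts (percent called 0). Before adjustment, 4.47% of the 9951 starts had an edgeR p under 0.05 at that dose. At the same dose miR-96 stood at -0.07. Between class B and class A this read differed by 0.02 (95% CI -0.32 to 0.35) where miR-96 differed by -0.74.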

How the data were processed

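Small RNA libraries from sow endometrium (TRIzol RNA, NEBNext small RNA kit, per the labels' protocols) were deposited as the raw count of each distinct read, 17 to 49 nt long, without normalization. The submitters' processing notes list FastQC and, with no role given, the genome builds GRCm38, UMD3.1, GRCh37.p5 and Sscrofa10.2; aligner and trimming are not given in the sources used here. Reads carry no molecular identifiers. Per the labels the sows are separate animals.

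Reads of 20 to 26 nt were grouped by their first 20 bases, and the libraries of sow 7 were summed. Levels are reads scaled to 1000000 reads of 18 to 26 nt (RPM). No mature microRNA table was used; the planned matching to one was replaced by the seed with the most abundant start, and other families are named by seed (bases 2 to 8). Of the starts with at least 30 reads, 9951 passed edgeR's filterByExpr and held 84.3% of the 18 to 26 nt reads. edgeR 4.0.16 (glmQLFit and glmQLFTest, robust, TMM factors 0.804 to 1.17, R 4.3.3) was fitted over 15 sows with Benjamini-Hochberg adjustment over all tested starts; DESeq2 1.42.0 was an alternative. Ratios were tested by exact permutation (scipy 1.17.1, numpy 2.4.6). The scripts were tested on simulated data. Named microRNAs are the members, the 3 seed families closest to each and the listed families.

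Members, lists and tests were chosen with earlier results of these data known. The class comparisons, the shifted start, the opposite arms and the other read with the miR-96 seed were added after seeing the data. Alternatives covered normalization, filter, start length, mismatches, tool, groups fitted, length-profile class as a covariate, starts up to 2 bases away, the libraries of sow 7 and each sow left out.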

Additional observations from a re-analysis of the deposited data

Results flagged for a closer look

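A test for a sow far from the rest was run 54 times, each time on 1 measure within the control group or a dose group. It flagged 3. The group at 0.05 µg/kg/day, which held the fewest sows, was not tested. Each test had a chance of 1 in 20 of a flag, but the measures share the same reads and sows. The 54 tests are therefore not independent, and whether 3 flags exceed chance was not tested. Control sow 2 had 67.7% of the cluster's reads in miR-182, above the other control sows, which lay between 64.17 and 64.25%. At 1000 µg/kg/day, sow 13 had 2409 RPM for the sum of miR-183, miR-96 and miR-182, above the 2076 to 2106 RPM of the others. The same sow had 91.1% of its miR-96 reads at 23 nt, above the 82.7 to 83.7% of the others at that dose.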

How the results depend on the processing

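Of 165 member values under the settings without a left-out sow, 164 kept their direction and stayed uncalled, and so did 160 of 180 with a sow left out. All 63 settings for the order of the members kept it. A start was called at 10 µg/kg/day by DESeq2 and without the filter on low counts (1 each), and 1 at 1000 µg/kg/day when only the compared groups were fitted; for the doses together DESeq2 called 2 and the unfiltered fit 1. Without a sow, 0 to 1 start was called at 10 µg/kg/day (1 without sow 8). At 0.05 µg/kg/day, library 7b of sow 7 alone gave 0.0258 for miR-96, -0.00787 for miR-183 over miR-96 and -0.10 for miR-182 over miR-96 (log2). Library 7a alone gave -0.11, 0.0917 and 0.0356. At 10 µg/kg/day, miR-182 over miR-96 was 0.00562 with an 18-base start and 0.0042 with 1 mismatch allowed.

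Leaving out each sow gave, at 0.05 µg/kg/day, -0.19 to 0.0474 for miR-183 and -0.37 to 0.25 for miR-96. At 10 µg/kg/day it gave -0.21 to 0.0801 for miR-183, -0.25 to 0.18 for miR-96 and -0.25 to 0.0671 for miR-182. At 1000 µg/kg/day miR-96 ran from -0.28 to 0.16, and per dose rank from -0.0803 to 0.0413. Log2 ratios ran from -0.0999 to 0.0303 (miR-182 over miR-183 at 10), -0.26 to 0.19 and -0.0813 to 0.0722 (miR-182 over miR-96 at 0.05 and 10), and -0.21 to 0.25 and -0.095 to 0.17 (miR-183 over miR-96 at 0.05 and 10). The correlation of miR-182 with miR-96 ran from 0.555 (without sow 7) to 0.746 (without sow 15), and was 0.584 without the 2 farthest sows and 0.582 in class B. That of miR-183 with miR-96 ran from 0.409 to 0.601 and passed the test on TMM-scaled levels (0.603) and in class A (0.901). Class B minus A ran from -0.85 to -0.67 for miR-96; scaled to all deposited reads it was -0.20 for miR-96, 0.36 for miR-183 and 0.16 for miR-182. Class C minus A was -0.12 for miR-182 on the 18 to 26 nt total alone. The cause of these changes was not tested. A fit on annotated microRNAs only was not run, as no annotation was used here. No paired analysis was possible because no sow number occurs in more than 1 group.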
